A study of Homo sapiens with 41 samples.

Results

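The 32 genes described here encode enzymes, regulators and carriers of cholesterol and fatty acid metabolism, taken by name from the 58721 genes of a time course in T98G, a human glioblastoma cell line. They comprise 7 genes of the mevalonate pathway, 11 of squalene and sterol synthesis, 4 of the SREBP system, 5 of sterol transport and LXR response, and 5 of fatty acid and lipid synthesis. All 32 were matched by symbol to a gene of the count table, and all 32 passed the filter on low counts. The genes were not chosen by a threshold on these values, but the list was made with earlier results of these data known. Shares of members set beside those of all genes are therefore description only.

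Cells make cholesterol by joining acetyl-CoA units into mevalonate, converting this to isoprenoid units, and building from those squalene, lanosterol and finally cholesterol. The transcription factors encoded by SREBF1 and SREBF2 (SREBPs) switch on most genes of this route and of fatty acid synthesis when membrane sterol is low, while INSIG proteins hold them back in the endoplasmic reticulum when sterol is plentiful. The LXR nuclear receptors respond to oxidized sterols and switch on genes that export cholesterol or reduce its uptake.

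All cells were kept for 72 h in medium without serum and then given 20% fetal calf serum. Total RNA depleted of rRNA was sequenced at 0 min, before serum, and at every 10 min up to 400 min, with 1 library at each of the 41 time points. No time point has a replicate, no genotype differs between libraries, and the labels give no culture or extraction batch. The comparisons therefore set the later time against the earlier one through a smooth curve fitted over all libraries. Each standard error (SE) is that of the fitted change, estimated from the scatter of the libraries about that curve. A call of higher or lower means an adjusted p below 0.01 in the quasi-likelihood test of edgeR, and log2 changes are later time minus earlier time. Values per library are normalized counts, meaning counts over exons divided by the size factor of the library, and they include spliced and unspliced RNA.

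Libraries held 18206982 to 64948114 counts (median 41773419). Of the markers of a glioblastoma line, VIM, CD44, TNC and SPARC were present in every library with at least 7850 normalized counts, whereas SOX2, GFAP and S100B did not exceed 6.23. NES and OLIG2 were low as well, at 21.2 to 61.7 and 8.30 to 65.0, a range that overlaps with the markers of other cell types. The markers of blood, endothelial, epithelial and liver cells stayed at or below 30.2 normalized counts, with HBB at 0 throughout. The libraries at 20, 90, 250 and 300 min lay farthest from the fitted curves over all genes. Since the RNA is bulk, fewer cells of a kind and less RNA per cell cannot be told apart in any of the values below.

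The 32 genes did not move as 1 block. INSIG1 and IDI1 rose early and then fell, NPC1, CYP51A1 and ACLY rose and were still high at 400 min, MYLIP rose for a short time and then fell further than any other member, and 17 members were lower at 400 min than at both 0 and 120 min. Over the whole course, 31 of the 32 members changed (75.5% of the 21629 genes tested did), the exception being FASN, and the profiles of 30 were autocorrelated by the Ljung–Box test (60.9% of all genes), the exceptions being FASN and PMVK. The heat map of all members shows these groups side by side.

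**Figure D1:**
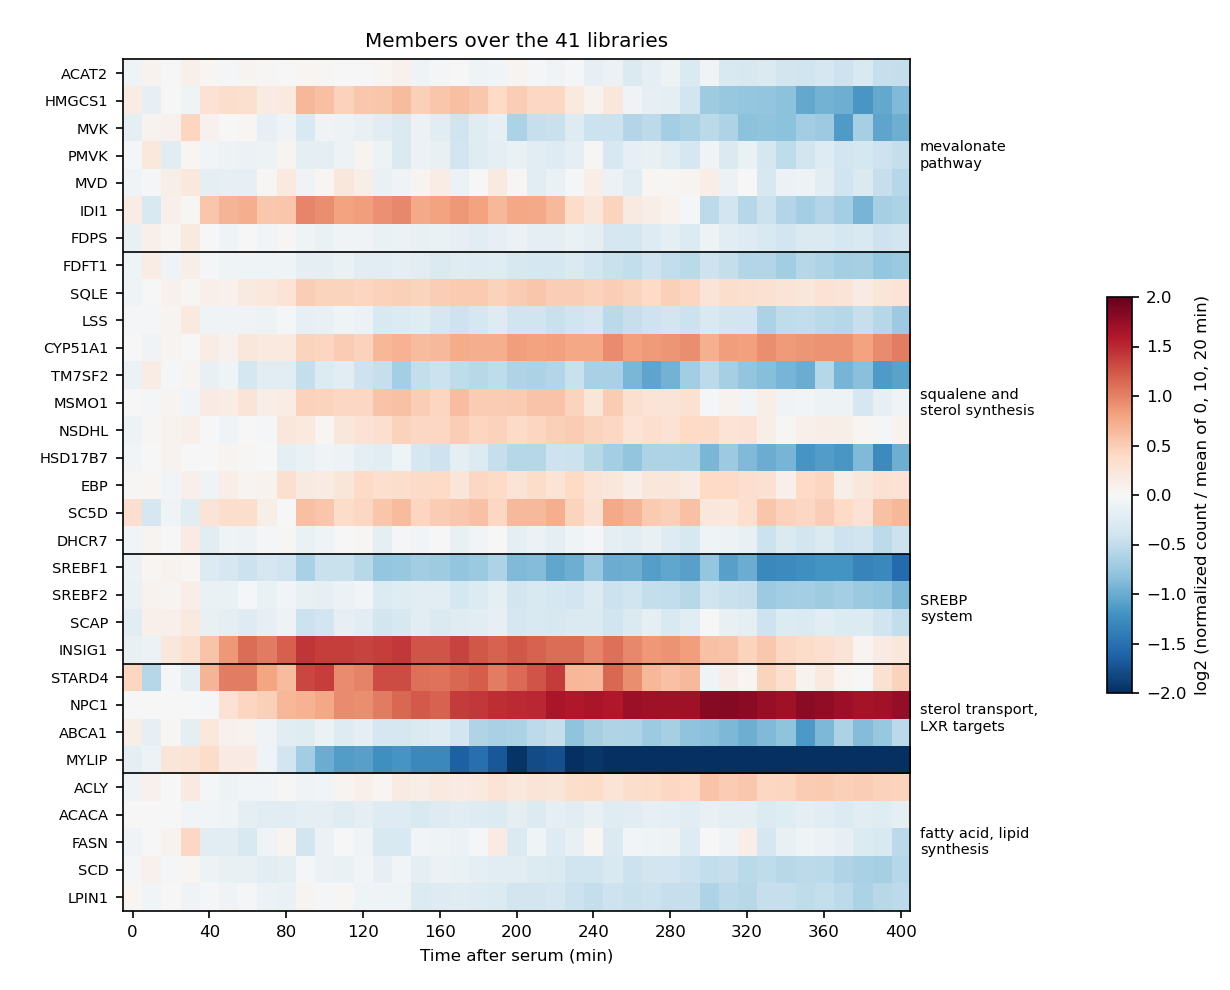
Each row is a member and each column a library, from 0 to 400 min after serum, with colour giving the log2 ratio of the normalized count to the gene's mean at 0, 10 and 20 min (scale limited to ±2, which MYLIP exceeds). INSIG1, HMGCS1 and IDI1 are red in the middle of the course and pale or blue at its end, NPC1 and CYP51A1 stay red, and ABCG1, with 0 to 19 counts per library, is left out.

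At 30 min 2 members were higher than at 0 min, INSIG1 and MYLIP (1.71% of all genes were higher), and none was lower (0.342%). At 60 min 4 were higher (5.15%), INSIG1, IDI1, SQLE and NPC1, and none was lower (1.23%). Of these, SQLE missed the threshold when windows of 3 libraries were compared (log2 change 0.16, adjusted p = 0.13). IDI1 missed it without the filter (adjusted p = 0.021) and without the 3 smallest libraries (adjusted p = 0.013). The next comparison, 120 min, had 7 higher members (13.6%), namely IDI1, SQLE, CYP51A1, MSMO1, NSDHL, INSIG1 and NPC1, and 3 lower ones (6.75%), SREBF1, MYLIP and ACACA. By 240 min the counts were 7 higher members (21.6%) and 11 lower ones (18.5%), and by 400 min they were 5 (24.2%) and 18 (22.4%). Between 400 and 120 min, 3 members were higher (23.8%) and 23 lower (24.1%), with a median log2 change of −0.49 over the 32 members, beside −0.01 over all genes. At 30, 60 and 120 min the higher members were thus 2, 4 and 7 of 32 (6.25%, 12.5% and 21.9%). These are few genes, and no excess over all genes is read from them. The lower members at 400 min were 18 of 32 (56.2%) where 22.4% of all genes were lower. All members except ABCG1 had at least 122 counts in each library. Only 14204 of the 21629 genes tested had a mean of at least 50, and no share was computed for genes counted as high as the members. The counts against 0 min lean on the single library of that time. Without it the starting level was extrapolated from 10 min onwards, and the members called numbered 0 for 30 min, 1 for 60 min, 2 for 120 min, then 6 for 240 and 8 for 400 min, although every member called with it kept its direction. Calls over all 21629 genes fell as well without that library. They were 125 higher and 3 lower at 30 min, and 302 and 11 at 60 min. At 120 min they were 722 and 77 (2935 and 1461 with it), and at 240 min 1302 and 482. At 400 min they were 1767 and 1134 (5236 and 4835 with it). All 26 calls between 400 and 120 min held without the 0 min library, where 5136 of all genes were higher and 5188 lower.

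Counted instead by windows of 3 libraries that did not overlap, 8 members lay above the 0 to 20 min window around 60 min (11.7% of all genes) and 4 below (11.0%), and 11 lay above it around 120 min (22.3%) and 9 below (19.0%). Around 240 min 10 lay above (27.6%) and 13 below (27.0%), and in the last window 5 lay above (31.6%) and 22 below (31.6%). Set against the 110 to 130 min window, 3 members of the last window lay above (29.6%) and 23 below (29.9%). In the last window 22 of 32 members were thus below their start, over the share of all genes, and 5 were above it, under that share.

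**Figure D2:**
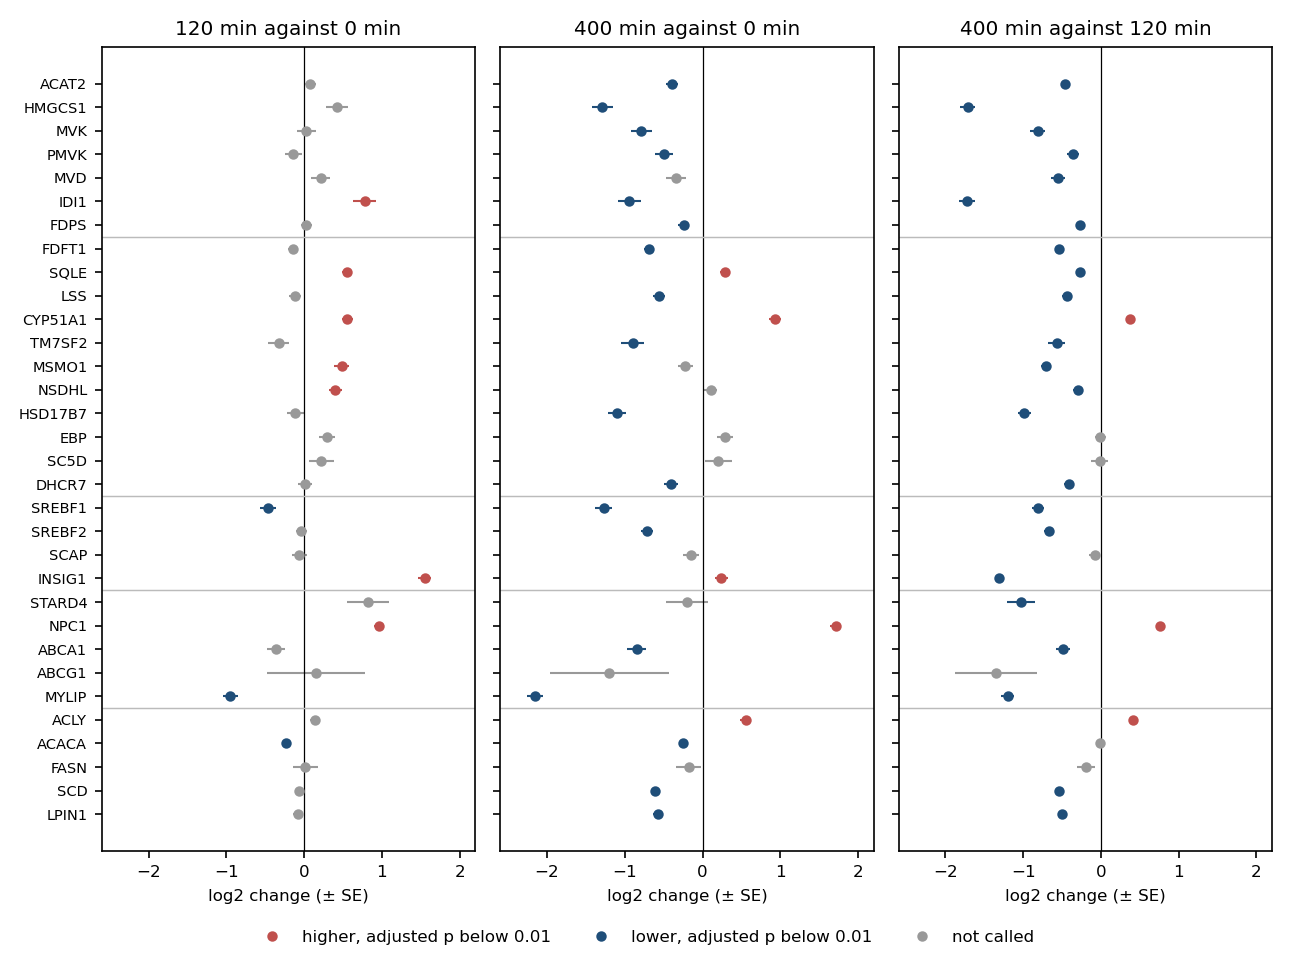
The log2 change (horizontal axis) of each member with its SE as a bar is drawn for 120 against 0 min, 400 against 0 min and 400 against 120 min, with members grouped by role. At 120 min 7 members are called higher and 3 lower, at 400 min 5 and 18 against 0 min, and 3 and 23 against 120 min.

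The regulators came apart from each other. INSIG1, whose protein retains the SREBP escort in the endoplasmic reticulum and which is itself a target of SREBPs, was the only one of the 4 to rise, while both SREBP genes fell. INSIG1 (ENSG00000186480, chromosome 7, 155297776 to 155310235 on the plus strand of GRCh38) had 5973, 6122 and 7751 normalized counts at 0, 10 and 20 min, 12058, 14357 and 13607 at 50 to 70 min, and 17332, 16952 and 17166 at 110 to 130 min. It then declined to 14347, 13066 and 14165 at 230 to 250 min, and to 6898, 7443 and 7732 at 380 to 400 min. The 3 libraries around 60 min were already above all 3 of the start, and those around 400 min overlapped with the start again. The log2 change against 0 min was 0.53 (SE 0.091) for 30 min and 1.20 (SE 0.085) for 60 min, then 1.55 (SE 0.085) for 120 min and 1.20 (SE 0.080) for 240 min, with adjusted p between 6.4e-05 and 4.7e-20. Against 120 min it was −1.31 (SE 0.055, adjusted p = 7.7e-25) at 400 min. The call at 400 min against 0 min was marginal at 0.24 (SE 0.082, adjusted p = 0.00998). Without the 0 min library the changes at 400 and 30 min were larger, 0.45 and 0.76, but neither passed the test (adjusted p = 0.14 and 0.20).

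SREBF1, which encodes the SREBP most tied to fatty acid synthesis, had 1207, 1337 and 1377 normalized counts at 0 to 20 min, 965, 893 and 762 at 110 to 130 min and 518, 535 and 444 at 380 to 400 min, with no overlap between these windows. Its log2 change was −0.46 (SE 0.10, adjusted p = 0.00036) at 120 min and −1.27 (SE 0.11, adjusted p = 4.2e-14) at 400 min. SREBF2, which encodes the SREBP most tied to cholesterol synthesis, passed the test from 240 min on. It had 1614, 1856 and 1836 normalized counts at 0 to 20 min, 1631, 1696 and 1457 at 110 to 130 min and 1055, 1036 and 954 at 380 to 400 min. Its change at 120 min was −0.04 (SE 0.073, adjusted p = 0.77) and at 400 min −0.71 (SE 0.075, adjusted p = 4.0e-11). Both falls at 400 min held without the 0 min library (adjusted p = 0.0021 for SREBF1 and 0.0066 for SREBF2), whereas the fall of SREBF1 at 120 min did not (adjusted p = 0.64). SCAP, the escort that carries SREBPs to the Golgi, passed the test over the whole course (adjusted p = 6.5e-06) but in no comparison of times. It had 1180, 1482 and 1471 normalized counts at 0 to 20 min and 1139, 1049 and 982 at 380 to 400 min, without overlap. Its values ran from 982 at 400 min to 1581 at 30 min, and its change at 400 min was −0.14 (SE 0.10, adjusted p = 0.24).

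The promoters of INSIG1, SREBF2 and of a pair of enzymes are shown because SREBPs bind short sterol regulatory elements near gene starts, usually beside a CCAAT box for NF-Y. RefSeq windows (GRCh38.p14, 250 bases before to 50 after the start, 35116 windows in all) were found for 27 members, with no entry for ACAT2, FDFT1, SQLE, ABCG1 and FASN, and both strands were searched. The element TCACNCCAC was in 1.13% of all windows and in 1 member, SREBF2. A looser form that includes it, TCACNCNAC, was chosen after the member windows had been read. It was in 2.55% of all windows and in 3 members, SREBF2, FDPS and HSD17B7. CCAAT was in 34.6% of all windows and in 20 members, the E-box CACGTG, which reads the same on both strands, in 7.26% and in 5 members, and the Sp1 box GGGCGG in 44.9% and in 26 members. Some members have several windows, so these member counts and the shares of all windows are not on the same base. Counted by window, TCACNCCAC was in 1 of the 37 member windows and TCACNCNAC in 3. CACGTG was in 6 of them, CCAAT in 24 and GGGCGG in 33. In the sequences, capitals mark TCACNCNAC and CCAAT on either strand, and for INSIG1, whose window holds no TCACNCNAC, CACGTG and CCAAT.
INSIG1, chr7:155297628-155297927, plus strand: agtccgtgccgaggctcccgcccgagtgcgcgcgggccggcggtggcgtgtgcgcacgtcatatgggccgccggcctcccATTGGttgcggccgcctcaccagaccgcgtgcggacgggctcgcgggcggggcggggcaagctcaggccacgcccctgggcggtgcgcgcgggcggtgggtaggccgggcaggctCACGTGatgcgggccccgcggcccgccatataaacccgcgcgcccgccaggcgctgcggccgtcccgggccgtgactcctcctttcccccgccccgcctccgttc
SREBF2, chr22:41832855-41833154, plus strand: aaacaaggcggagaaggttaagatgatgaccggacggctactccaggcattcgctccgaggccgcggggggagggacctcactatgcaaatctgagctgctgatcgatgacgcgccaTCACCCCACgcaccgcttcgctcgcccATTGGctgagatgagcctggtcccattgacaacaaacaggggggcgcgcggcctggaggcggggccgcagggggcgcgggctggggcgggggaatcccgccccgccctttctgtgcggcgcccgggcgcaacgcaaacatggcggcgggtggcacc
FDPS, chr1:155308616-155308915, plus strand: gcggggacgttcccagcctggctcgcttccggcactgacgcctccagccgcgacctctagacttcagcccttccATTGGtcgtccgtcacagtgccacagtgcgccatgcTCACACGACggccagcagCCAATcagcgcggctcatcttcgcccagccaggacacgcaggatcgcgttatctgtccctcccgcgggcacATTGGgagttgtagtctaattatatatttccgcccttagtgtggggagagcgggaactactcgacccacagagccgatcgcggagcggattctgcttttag
HSD17B7, chr1:162790452-162790751, plus strand: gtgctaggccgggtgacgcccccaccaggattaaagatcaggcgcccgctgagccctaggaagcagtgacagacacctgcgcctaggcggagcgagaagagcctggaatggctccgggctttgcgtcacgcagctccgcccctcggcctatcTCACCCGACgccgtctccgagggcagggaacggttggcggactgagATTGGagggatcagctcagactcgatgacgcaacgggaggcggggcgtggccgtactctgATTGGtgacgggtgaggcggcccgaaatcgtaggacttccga
Counted from 1 at the 5′ end of each window, TCACCCCAC starts at base 118 in SREBF2, TCACACGAC at base 111 in FDPS, TCACCCGAC at base 153 in HSD17B7, and CACGTG at base 196 in INSIG1. These matches describe letters in the windows and were not set against any measure of binding.

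All 7 genes of the mevalonate pathway were lower at 400 than at 120 min (24.1% of all genes), and 6 of them were lower at 400 than at 0 min, all but MVD (22.4% of all genes). Only IDI1, the isomerase that supplies the allylic isoprenoid unit, passed the test as higher at any time. IDI1 had 1889, 1381 and 1823 normalized counts at 0 to 20 min, 2728, 2812 and 2473 at 50 to 70 min, 2959, 3046 and 3186 at 110 to 130 min, 2186, 1995 and 2310 at 230 to 250 min, and 896, 1070 and 1096 at 380 to 400 min. The windows around 60, 120 and 240 min lay wholly above the start and the last one wholly below it. Its log2 change was 0.58 (SE 0.15, adjusted p = 0.0089) at 60 min, 0.78 (SE 0.15, adjusted p = 9.3e-05) at 120 min and −0.94 (SE 0.15, adjusted p = 1.0e-06) at 400 min, against 0 min. None of these 3 calls held without the 0 min library, where the changes were 1.05, 1.25 and −0.47 (adjusted p = 0.31, 0.066 and 0.48). The change of −1.72 (SE 0.11, adjusted p = 6.7e-17) at 400 against 120 min did.

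HMGCS1, the synthase that makes HMG-CoA, had a profile of similar shape. It had 6365, 5101 and 5684 normalized counts at 0 to 20 min, 7879, 8326 and 8429 at 110 to 130 min, and 2554, 2818 and 3085 at 380 to 400 min. All 3 libraries around 120 min were above the start and all 3 of the last window were below it. The highest value was 9097 at 90 min, 1 of the libraries far from the curves, and the lowest 2554 at 380 min. At 120 min the change of 0.43 (SE 0.14) against 0 min missed the threshold (adjusted p = 0.019). At 400 min it was −1.29 (SE 0.14, adjusted p = 2.3e-10) against 0 min, a call lost without the 0 min library (adjusted p = 0.037), and −1.72 (SE 0.099, adjusted p = 1.6e-17) against 120 min.

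The remaining mevalonate genes had no early rise that passed the test. MVK, mevalonate kinase, had 202, 155 and 164 normalized counts at 380 to 400 min, against 285, 337 and 343 at 0 to 20 min, a change of −0.79 (SE 0.13, adjusted p = 1.9e-06). PMVK, the next kinase, had 348, 335 and 321 at 380 to 400 min against 437, 517 and 385 at 0 to 20 min, a change of −0.50 (SE 0.12, adjusted p = 0.00033). Both windows were lower than the start without overlap. MVD, the decarboxylase, passed the test only at 400 against 120 min, with 781, 695 and 643 normalized counts at 380 to 400 min against 1127, 1040 and 876 at 110 to 130 min (log2 change −0.55, SE 0.090, adjusted p = 1.2e-06). ACAT2, the thiolase at the head of the route, and FDPS, farnesyl diphosphate synthase, fell by 0.39 (SE 0.074) and 0.24 (SE 0.070) on the log2 scale at 400 against 0 min. Of these calls against 0 min, those of MVK, PMVK, ACAT2 and FDPS were all lost without the 0 min library (adjusted p from 0.0106 to 0.19), with a change of −1.01 for PMVK, whereas the falls against 120 min held for all 7 genes.

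**Figure D3:**
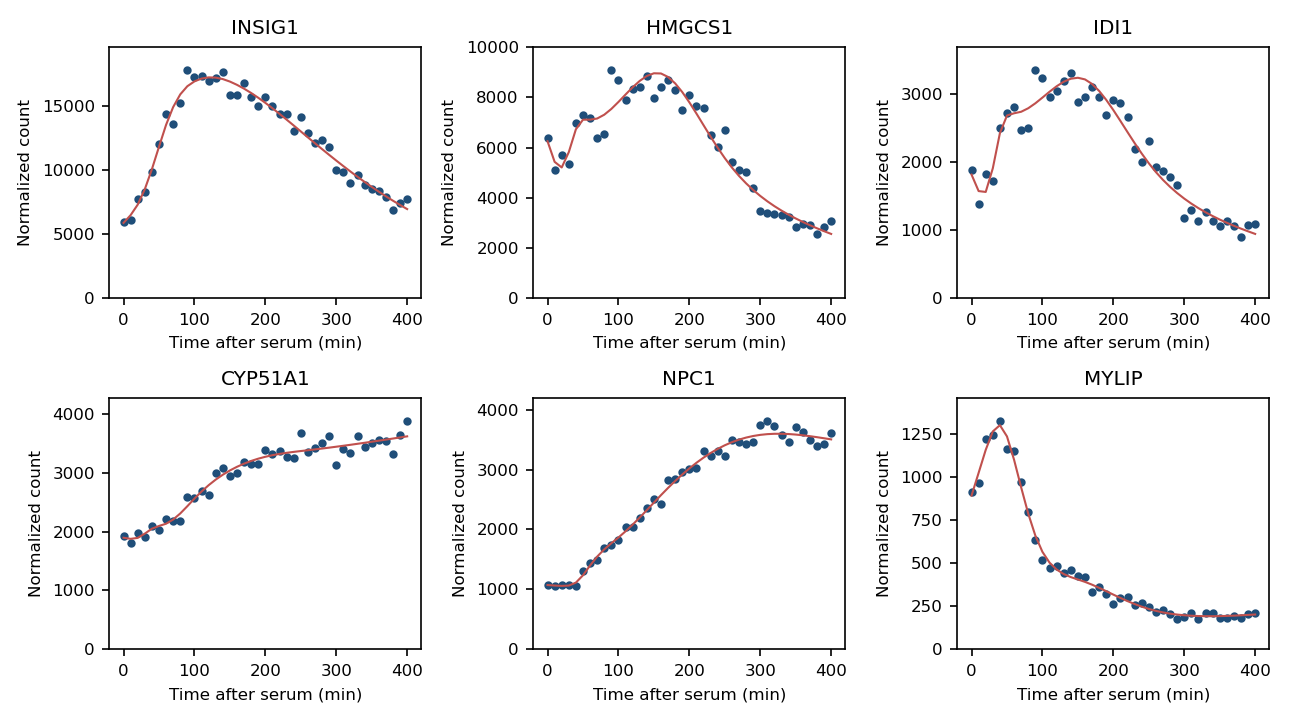
Normalized counts of 6 members in each library (points) and the fitted curve (line) are drawn against time after serum, with the vertical axis from 0. Among the points, INSIG1, HMGCS1 and IDI1 are highest at 90 min, while their curves peak later. HMGCS1 and IDI1 end below their start, NPC1 rises to a plateau, and the curve of CYP51A1 rises up to 400 min. MYLIP peaks at 40 min with 1328 counts and falls to 175 at 290 min.

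Squalene and sterol synthesis held both rising and falling enzymes. At 120 min 4 of its 11 genes were higher than at 0 min (SQLE, CYP51A1, MSMO1 and NSDHL) and none was lower, beside 13.6% and 6.75% of all genes. At 400 min 2 were higher, SQLE and CYP51A1, beside 24.2% of all genes, and 5 were lower, namely FDFT1, LSS, TM7SF2, HSD17B7 and DHCR7, beside 22.4%. Against 120 min, 1 was higher at 400 min and 8 were lower, beside 23.8% and 24.1% of all genes.

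CYP51A1, the cytochrome P450 that demethylates lanosterol, was the only sterol synthesis enzyme that was higher at 400 than at 120 min. It had 1917, 1810 and 1980 normalized counts at 0 to 20 min, 2698, 2625 and 3000 at 110 to 130 min, 3265, 3259 and 3675 at 230 to 250 min, and 3314, 3646 and 3884 at 380 to 400 min. The first 3 windows rose without overlap, and the last overlapped with that at 230 to 250 min. Its log2 change against 0 min was 0.56 (SE 0.071) at 120 min, 0.82 (SE 0.069) at 240 min and 0.93 (SE 0.075, adjusted p = 9.8e-15) at 400 min, and 0.38 (SE 0.047, adjusted p = 3.2e-09) at 400 against 120 min. The calls at 240 and 400 min held without the 0 min library and that at 120 min did not (adjusted p = 0.017).

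MSMO1, which acts later than CYP51A1 on methyl groups of the sterol, rose and fell back. It had 4523, 4447 and 4728 normalized counts at 0 to 20 min, 6084, 6087 and 6771 at 110 to 130 min and 3631, 4091 and 4347 at 380 to 400 min. The middle window was above both others without overlap. The change was 0.49 (SE 0.097, adjusted p = 1.0e-04) at 120 min, lost without the 0 min library (adjusted p = 0.43), and −0.71 (SE 0.066, adjusted p = 1.5e-12) at 400 against 120 min. SQLE, squalene epoxidase, had 3000, 2962 and 3044 normalized counts at 110 to 130 min, against 2079, 2203 and 2343 at 0 to 20 min, a change of 0.55 (SE 0.059, adjusted p = 1.7e-10). NSDHL, a dehydrogenase of the same demethylation as MSMO1, reached 1130, 1079 and 1056 at 230 to 250 min, against 737, 804 and 833 at 0 to 20 min (log2 change 0.53, SE 0.075, adjusted p = 6.1e-08). Without the 0 min library the change of SQLE at 120 min and that of NSDHL at 240 min missed the threshold (adjusted p = 0.015 and 0.052), while SQLE at 240 min passed (adjusted p = 0.0084).

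Of the sterol synthesis enzymes that fell, HSD17B7 is the ketoreductase of the demethylation. It had 199, 152 and 188 normalized counts at 380 to 400 min, against 353, 365 and 387 at 0 to 20 min, a log2 change of −1.10 (SE 0.12, adjusted p = 4.9e-11) that held without the 0 min library (adjusted p = 0.0055). Its value is uncertain, because reads that fit several genes were counted for each, and the pseudogene HSD17B7P2 held 18.2% as many counts as HSD17B7. Named pseudogenes of IDI1, FDPS, CYP51A1 and SCD held at most 0.90% as many. TM7SF2, a sterol reductase, had 190, 154 and 160 normalized counts at 380 to 400 min against 311, 372 and 327 at 0 to 20 min (log2 change −0.90, SE 0.14, adjusted p = 7.9e-07), a call lost without the 0 min library (adjusted p = 0.017). FDFT1, squalene synthase, had 2592, 2416 and 2470 at 380 to 400 min against 3863, 4559 and 3928 at 0 to 20 min (log2 change −0.69, SE 0.062, adjusted p = 3.7e-13), which held (adjusted p = 3.4e-06). SQLE, which oxidizes the squalene that FDFT1 makes, had a change of 0.29 (SE 0.061, adjusted p = 9.7e-05) at the same time, in the opposite direction, a call lost without the 0 min library (adjusted p = 0.17). LSS, lanosterol synthase, and DHCR7, which completes cholesterol, fell by 0.56 (SE 0.078) and 0.40 (SE 0.091) on the log2 scale, and neither call held without the 0 min library, where the changes were −0.26 and −0.31 (adjusted p = 0.43 and 0.41).

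EBP, the sterol isomerase, and SC5D, the desaturase after it, passed no test of a difference between times. EBP had 507, 567 and 542 normalized counts at 110 to 130 min against 436, 441 and 414 at 0 to 20 min without overlap, and its changes of 0.30 (SE 0.10) at 120 min and 0.29 (SE 0.11) at 400 min missed the threshold (adjusted p = 0.022 and 0.018). SC5D had 975, 1015 and 1122 at 110 to 130 min against 956, 600 and 723 at 0 to 20 min, and its change at 120 min was 0.22 (SE 0.16, adjusted p = 0.35).

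The transport genes and LXR targets held the largest changes of the 32 in both directions. NPC1, which releases cholesterol from lysosomes, rose from 50 min on and stayed high. It had 1073, 1055 and 1071 normalized counts at 0 to 20 min, 1299, 1435 and 1490 at 50 to 70 min, 2044, 2038 and 2193 at 110 to 130 min, 3229, 3304 and 3223 at 230 to 250 min, and 3391, 3431 and 3620 at 380 to 400 min. No 2 of these 5 windows overlapped. The log2 change against 0 min was 0.38 (SE 0.063, adjusted p = 1.1e-05) for 60 min, 0.96 (SE 0.064, adjusted p = 4.9e-17) for 120 min, 1.64 (SE 0.064, adjusted p = 8.4e-26) for 240 min and 1.71 (SE 0.068, adjusted p = 1.6e-25) at 400 min, which is 3.27-fold. The call at 60 min was lost without the 0 min library (adjusted p = 0.39) and the later ones held.

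MYLIP, an LXR-induced ubiquitin ligase that marks lipoprotein receptors for degradation, moved the other way after a short rise. It had 913, 966 and 1221 normalized counts at 0 to 20 min and a highest value of 1328 at 40 min, then 1163, 1152 and 974 at 50 to 70 min, 475, 486 and 441 at 110 to 130 min, 257, 267 and 246 at 230 to 250 min, and 183, 203 and 209 at 380 to 400 min. The rise at 30 min was 0.50 on the log2 scale (SE 0.11, adjusted p = 0.0031). It missed the threshold without the 0 min library (0.79, adjusted p = 0.49) and without the 3 smallest libraries (adjusted p = 0.017). From 120 min on every window lay below the start, with log2 changes of −0.95 (SE 0.093) at 120 min, −1.86 (SE 0.085) at 240 min and −2.15 (SE 0.10, adjusted p = 9.2e-23) at 400 min, or 0.225 of the starting level. The calls at 240 and 400 min held without the 0 min library, and that at 120 min did not (adjusted p = 0.12).

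ABCA1, an LXR target that exports cholesterol, had 298, 324 and 375 normalized counts at 380 to 400 min, against 591, 489 and 555 at 0 to 20 min. These windows did not overlap, and the log2 change was −0.85 (SE 0.12, adjusted p = 6.6e-08), a call lost without the 0 min library (adjusted p = 0.13). Against 120 min its change was −0.49 (SE 0.086, adjusted p = 3.4e-06). ABCG1, its partner in export, had between 0 and 19 counts per library before normalization, and passed the test over the whole course (adjusted p = 0.00011) but in no comparison of times (log2 change −1.20, SE 0.76, adjusted p = 0.18 at 400 min).

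STARD4, a cytosolic sterol carrier and a known SREBP target, was the least smooth of the other members. It had 1503, 753 and 1106 normalized counts at 0 to 20 min, 2148, 2226 and 2780 at 110 to 130 min, and 1118, 1386 and 1543 at 380 to 400 min. Its change at 400 against 120 min was −1.02 (SE 0.18, adjusted p = 9.5e-06). At 120 against 0 min it was 0.82 (SE 0.27) and missed the threshold (adjusted p = 0.019), although the windows did not overlap. The standard deviation of its libraries about the curve was 0.23 on the log2 scale, beside 0.15 for SC5D, the next highest apart from ABCG1 (0.84).

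Of the 5 genes of fatty acid and lipid synthesis, 1 was higher at 400 than at 0 min, ACLY (24.2% of all genes), and 3 were lower, ACACA, SCD and LPIN1 (22.4%). ACLY, ATP-citrate lyase, which supplies cytosolic acetyl-CoA to both routes, had 7188, 7038 and 6937 normalized counts at 380 to 400 min, against 4844, 5401 and 5052 at 0 to 20 min. The windows were far apart, with a log2 change of 0.55 (SE 0.067, adjusted p = 1.4e-09), which missed the threshold without the 0 min library (adjusted p = 0.031). Against 120 min the change was 0.42 (SE 0.044, adjusted p = 2.7e-11). SCD, the desaturase that makes monounsaturated fatty acids, had 25505, 25180 and 26728 at 380 to 400 min, against 38708, 42008 and 38626 at 0 to 20 min, a change of −0.61 (SE 0.054, adjusted p = 2.0e-13) that held without the 0 min library (adjusted p = 7.3e-05). LPIN1, a phosphatidate phosphatase of glycerolipid synthesis, had 1574, 1674 and 1706 at 380 to 400 min, against 2521, 2353 and 2468 at 0 to 20 min. Its change of −0.57 (SE 0.062, adjusted p = 5.9e-11) did not pass without that library (adjusted p = 0.039).

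ACACA and FASN, the enzymes that make malonyl-CoA and then palmitate from it, changed little or passed no test. ACACA had 3524, 3513 and 3545 normalized counts at 0 to 20 min, 2971, 3065 and 2941 at 110 to 130 min, and 3028, 2987 and 3081 at 380 to 400 min. Both later windows lay wholly below the start, with log2 changes of −0.24 (SE 0.047, adjusted p = 8.5e-05) at 120 min and −0.25 (SE 0.049, adjusted p = 3.7e-05) at 400 min. Neither call held without the 0 min library (adjusted p = 0.36 and 0.18). FASN passed no test. It ran from 1074 at 400 min to 2071 at 30 min with a median of 1461 over the 41 libraries, and its change at 400 min was −0.18 (SE 0.16, adjusted p = 0.37). Its windows of 1289, 1263 and 1074 at 380 to 400 min and 1484, 1566 and 1630 at 0 to 20 min did not overlap.

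Members that passed the test as higher at some time did not all reach their highest level together. In running means of 3 libraries, INSIG1 and IDI1 were highest at 100 min, with 2.64 and 1.88 times their mean at 0 to 20 min, and MYLIP at 30 min with 1.22 times. SQLE and MSMO1 were highest at 210 min, with 1.43 and 1.47 times that mean, and NSDHL at 230 min with 1.39 times. NPC1 and ACLY were highest at 310 min, with 3.54 and 1.45 times, and CYP51A1 at 390 min with 1.90 times. Of members that never passed as higher, HMGCS1 was highest at 100 min (1.50 times) and EBP at 310 min (1.30 times). STARD4 and SC5D were highest at 210 min (2.40 and 1.60 times). Their mean at 0 to 20 min was below the 0 min library alone, 1121 beside 1503 for STARD4 and 759.6 beside 955.5 for SC5D. The same held for IDI1 (1698 beside 1889) and HMGCS1 (5717 beside 6365). Against 0 min alone the ratios of these genes would be smaller. The times above are given as description and carry no error of their own. The means at 100 min include the 90 min library, which was far from the curves, and those at 310 min include the 300 min library, far as well. The same limit holds for the 0 to 20 and 230 to 250 min windows, through the 20 and 250 min libraries. The 20 min library was also the smallest of all. The fitted curves put several of these highs closer together. They were highest at 120 min for INSIG1, 150 min for IDI1 and HMGCS1 and 160 min for STARD4. For SQLE and MSMO1 this was 170 min and for NSDHL 190 min. INSIG1, IDI1, SQLE, MSMO1 and NSDHL were both higher at 120 than at 0 min and lower at 400 than at 120 min, a pattern found in 3.49% of all genes. The 17 members that were lower at 400 min than at both earlier times compare with 17.2% of all genes, and the 3 that were higher than at both (CYP51A1, NPC1 and ACLY) with 18.5%.

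In the libraries farthest from the curves, 2 sets of members lay on opposite sides. At 20, 90 and 250 min 9 members, HMGCS1, IDI1, SQLE, CYP51A1, MSMO1, SC5D, INSIG1, STARD4 and LPIN1, all lay above their curves, and at 300 min all 9 lay below. Another 12, PMVK, MVD, FDPS, FDFT1, LSS, EBP, DHCR7, SREBF1, SREBF2, SCAP, ACLY and FASN, did the reverse, and 11 were mixed. Of the 14204 tested genes with a mean of at least 50 counts, 28.9% had the first order of signs and 31.5% the reverse, so that 9 and 12 of 32 members are near the shares of all such genes. STARD4 was 0.39, 0.32 and 0.38 above its curve on the log2 scale at 20, 90 and 250 min, and at 300 min its distance was −0.52. SCAP was at −0.11, −0.19 and −0.16 in the first 3 of these libraries and at 0.23 at 300 min. With these 4 libraries left out, a choice made after seeing the data, all 83 calls of single members between times were kept.

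**Figure D4:**
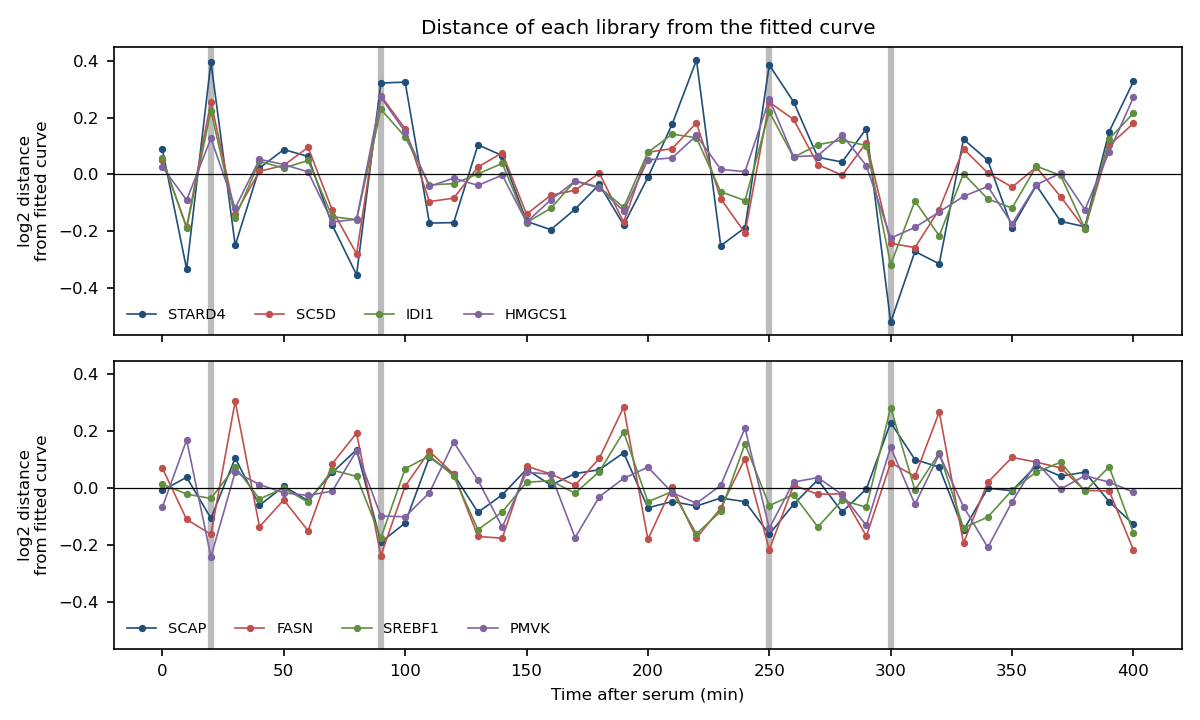
Log2 distance of each library from the fitted curve is drawn against time for STARD4, SC5D, IDI1 and HMGCS1 (upper panel) and for SCAP, FASN, SREBF1 and PMVK (lower panel), chosen after their values were seen. Grey bars mark 20, 90, 250 and 300 min, where STARD4 reaches 0.39, 0.32, 0.38 and −0.52 and SCAP is on the other side of its curve each time.

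Among 27 further genes of the same pathways, the calls against 0 min were 4 higher and 3 lower for 120 min and 7 higher and 8 lower for 400 min, shares of 14.8%, 11.1%, 25.9% and 29.6% that lie near those of all genes (13.6%, 6.75%, 24.2% and 22.4%), with a median log2 change of −0.01 at 400 min. SOAT1, which esterifies cholesterol for storage, had 2939, 3288 and 3393 normalized counts at 380 to 400 min, against 1837, 1692 and 1863 at 0 to 20 min (log2 change 0.82, SE 0.080, adjusted p = 4.7e-12). SOAT1 was also higher at 400 than at 120 min, like NPC1, CYP51A1 and ACLY among the members. In that comparison 9 of the 27 genes were higher and 9 lower, 33.3% each, beside 23.8% and 24.1% of all genes. Their median log2 change was −0.02, beside −0.49 over the 32 members, of which 3 were higher and 23 lower. NR1H3, which encodes an LXR receptor, had 236, 223 and 215 normalized counts at 380 to 400 min, against 675, 700 and 663 at 0 to 20 min (log2 change −1.52, SE 0.11, adjusted p = 2.2e-16). ACACB, the acetyl-CoA carboxylase at mitochondria, had 67.0, 76.1 and 75.5 against 306, 311 and 305 (log2 change −2.08, SE 0.15, adjusted p = 2.1e-16). ACSS2, which makes acetyl-CoA from acetate, changed by −0.96 (SE 0.084) and ERG28, a scaffold of sterol demethylation, by −0.80 (SE 0.095), or −1.35 without the 0 min library.

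With size factors from the 77 spike-in sequences in place of the median of ratios, the median change of all genes moved by −0.14 at 30 min and −0.23 at 60 min on the log2 scale, and by at most 0.042 at later times. Every member called in any comparison kept its direction under this scaling, with fewer passing the test. Against 0 min, those that passed were 0 of 2 for 30 min, 1 of 4 for 60 min and 3 of 10 for 120 min. They were 6 of 18 for 240 min and 12 of 23 for 400 min, and 16 of 26 for 400 against 120 min. Calls over all genes fell too. At 120 min 1043 were higher and 393 lower, beside 2935 and 1461 with the median of ratios. At 400 against 0 min 2795 and 2597 were, beside 5236 and 4835. At 400 against 120 min 2955 and 2884 were, beside 5137 and 5204.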

How the data were processed

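RNA-seq libraries from T98G cells at 41 time points were used, 1 per time point, grouped by the time in their labels. Per the submitters' processing notes and the study's methods, the authors trimmed reads with cutadapt 1.11, aligned them to GRCh38 with STAR 2.5.2a and deposited counts per gene from featureCounts, over exons and by strand, with reads that fit several genes counted for each. The deposited normalized values were not used. The 41 separate tables equalled the joint table. Of 58721 genes, 58207 were matched to GENCODE 44, and 45 copies on the pseudoautosomal Y were left out.

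Genes with over 10 counts in a library and over 2 in 3 consecutive libraries were tested (21629). In edgeR 4.0.16 (R 4.3.3, limma 3.58.1), counts scaled by median-of-ratios size factors (0.447 to 1.60) were fitted along time by natural cubic splines (7 degrees of freedom, 33 left for the residuals) whose inner knots were set to 20, 40, 60, 100, 160 and 260 min. P-values were adjusted over all genes by Benjamini-Hochberg. The Ljung–Box test used lag 1. P-values rest on the scatter of single libraries about a curve, not on replicates. The steps were tested on simulated counts whose scatter was independent between genes and libraries. Shifts of whole libraries shared by many genes were therefore not covered. Values used Python 3.11.15 with pandas 2.3.3, numpy 2.4.6 and matplotlib 3.10.9.

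All 32 members are named by role. In each role up to 5 with the largest change past the threshold are given in full, and up to 6 other genes of the pathways, of which 1 is not reported here. The members, the lists and the tests were chosen with earlier results of these data known. Alternatives were TMM or spike-in factors, no filter, other knots or 5 degrees of freedom, DESeq2 1.42.0, windows of 3 libraries, a threshold of 0.05, leaving out libraries, and for the Ljung–Box test log2 values and lag 2.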

Additional observations from a re-analysis of the deposited data

How the results depend on the processing

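No paired analysis was possible because each time point has 1 library and no 2 groups share replicate numbers beyond 1. No call of a single member reversed under any alternative. Of 83 such calls, 83 held with 5 degrees of freedom, evenly spaced knots, a threshold of 0.05 and without the 300 min library, 82 with TMM and DESeq2, 81 without the filter, 80 without the 3 smallest libraries and 78 of 81 with windows of 3 libraries, which were not run at 30 min because the windows would share a library. With spike-in factors 38 held and without the 0 min library 43. The call of INSIG1 at 400 against 0 min was lost under TMM (adjusted p = 0.015), DESeq2 (0.011), no filter (0.013), windows (0.12) and without the 3 smallest libraries (0.018). The counts of members that moved by over 1.5 times were these. With spike-in factors, 0, 1, 2, 3 and 2 were higher for 30, 60, 120, 240 and 400 min, and 1, 3 and 10 were lower at 120, 240 and 400 min, with 14 lower at 400 against 120 min and 19 autocorrelated. Without the 0 min library, 0, 1, 2, 4 and 2 were higher at 30, 60, 120, 240 and 400 min, and 0, 2 and 6 were lower at 120, 240 and 400 min. Calls over all genes against 0 min also fell with spike-in factors and without the 0 min library, at every time. With evenly spaced knots the higher members were 4, 11 and 11 (30, 120 and 240 min). The lower ones were 1 and 8 (60 and 120 min). Calls over all genes rose there too. They were 856, 3807 and 5156 higher, beside 369, 2935 and 4675 in the main fit, and 382 and 3283 lower, beside 267 and 1461. Without the 3 smallest libraries 1 member was higher at 30 min, beside 500 of all genes. Without the 4 libraries farthest from the curves 5 members were, beside 941 of all genes. These 4 libraries were chosen after seeing the data. At 60 min 1 member was lower with DESeq2 and 1 with a threshold of 0.05, beside 282 and 606 of all genes. The causes were not tested, apart from the missing library itself. The smallest change called against 0 min was −0.21 on the log2 scale (ACACA at 240 min), and the SE reached 0.30 for STARD4 and 0.76 for ABCG1.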
